A study of Homo sapiens with 4 samples.

Results

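The genes described here encode the proteasome, its activators, its inhibitor and its assembly chaperones, as measured in A549 cells after transfection of either strand of *miR-486*. Members were chosen by name: a protein-coding gene whose symbol starts with PSMA, PSMB, PSMC, PSMD, PSME, PSMF or PSMG, matched to a probe through the RefSeq accession of the probe. This gave 50 of the 22439 genes matched to a probe, covered by 68 probes, and 16 members had more than 1 probe. The rule used no measured value. It also took *PSMC3IP*, a factor of meiotic recombination, and *PSME3IP1*, a binding partner of *PSME3*, which carry the prefix without being proteasome subunits. Both are counted among the members in the medians and counts below, and their own values are given apart from the subunits.

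A549 is an established human lung adenocarcinoma line, grown here in RPMI 1640 medium. RNA was extracted with Trizol, labeled with Cy3 and hybridized to 4 one-color Agilent arrays, of which 1 held cells given *miR-486-5p*, 1 cells given *miR-486-3p* and 2 mock cells. The miRNAs were introduced with Lipofectamine RNAiMAX, and mock cells were given this reagent without miRNA. The strands are the guide (5p) and passenger (3p) products of one precursor. The comparison asks which genes changed when each strand was raised in cancer cells. Neither group received a control miRNA, so that the mock arrays do not control for the presence of a transfected small RNA. The labels do not say whether the mock arrays came from separate cultures, and a p-value then measures the spread between these arrays, which may be technical. The time of RNA extraction for the arrays is not given in the sources used here.

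The proteasome is the protease that degrades proteins tagged with ubiquitin. Its 20S core is a barrel of stacked rings, in which the outer alpha rings (PSMA) guard the entry and the inner beta rings (PSMB) carry the active sites. The 19S particle caps the barrel: its base unfolds substrates with a ring of ATPases (PSMC) and its lid (PSMD) removes ubiquitin. Interferon induces alternative active-site subunits (*PSMB8*, *PSMB9* and *PSMB10*), which form the immunoproteasome and favor peptides for antigen presentation, together with the activator *PSME1* and *PSME2*. The PSMG proteins are chaperones that build the alpha ring, and the factor NFE2L1 induces subunit genes when proteasome activity falls.

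Every array was scaled by subtraction of the 75th percentile of its log2 signal. A level below is this scaled log2 signal, and a difference is the level on a transfected array minus the mean level on both mock arrays, averaged over the probes of a gene. Of the 68 member probes, 66 were well above background on all 4 arrays, with signals from 7.18 to 50528. *PSMA8*, the alpha subunit of the testis, and 1 of the 2 probes of *PSMB11*, the beta subunit of the thymus, were not well above background on any array, which left 49 members with a measurement. The mock arrays differed by a median of 0.07 over the member probes and by 0.30 at most, on a dim probe of *PSMG4*. Over the 28246 probes well above background everywhere, their difference had an SD of 0.20. Of 9 epithelial and lung adenocarcinoma markers, 6 had a probe well above background on all 4 arrays, and *CDH1* had none on any array. Markers of leukocytes (3 of 3 genes, *PTPRC*, *CD3E* and *CD14*) also had such probes. Of the 5 probes of *PTPRC*, however, 3 were well above background on no array. *CD3E* was dim, at −4.33 and −4.04 on the mock arrays, where the lowest level well above background was −4.73. The summed signal of the leukocyte list, relative to the 75th percentile, was 0.32 and 0.34 on the mock arrays, 0.50 with *miR-486-5p* and 0.99 with *miR-486-3p*. *CD14* differed by 2.22 after *miR-486-3p*, whereas *PTPRC* and *CD3E* differed by 0.28 and 0.14. The sum of the fibroblast list was 0.12 and 0.10 on the mock arrays, 0.097 with *miR-486-5p* and 0.22 with *miR-486-3p*, and that of the endothelial list 0.39 and 0.35, 0.36 and 0.25. For the epithelial list it was 121 and 120 on the mock arrays, and 91.2 and 92.0 on the transfected arrays. The part of these markers in the results was not tested. Signal was compared per array, so that a change in the RNA content of a cell and a change in the number of cells cannot be told apart.

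Promoters are shown first, because the genes of the immunoproteasome and of its activator are known to respond to interferon together, while their levels here did not move together. RefSeq promoters (GRCh38.p14, 250 bases before and 50 after the start) were found for 44 of the 50 members, 55 promoters in all. The letters GAAANNGAA, the core of the interferon-stimulated response element, were searched on both strands. They were found in 8 of the 55 member promoters, and in 7.09% of the 22199 promoters of protein-coding genes. In 5 of the 8, *PSMB8*, *PSMB10*, *PSME1*, *PSME2* and *PSMG4*, the match read GAAAGCGAA on one strand or the other, a string that 0.320% of all promoters hold. This string was singled out after the matches were seen. The stretch from 60 bases before to 20 bases after the start is printed for these 5 genes and for *PSMB9*, 5′ to 3′ along the gene, with the matches in capitals.
PSMB8, chr6:32844028-32844107, minus strand: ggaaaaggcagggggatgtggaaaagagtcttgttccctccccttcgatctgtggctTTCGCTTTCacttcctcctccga
PSMB10, chr16:67936831-67936910, minus strand: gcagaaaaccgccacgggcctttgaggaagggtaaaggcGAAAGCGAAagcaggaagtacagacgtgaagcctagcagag
PSME1, chr14:24136134-24136213, plus strand: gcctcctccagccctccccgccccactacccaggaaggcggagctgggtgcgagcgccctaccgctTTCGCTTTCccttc
PSME2, chr14:24146591-24146670, minus strand: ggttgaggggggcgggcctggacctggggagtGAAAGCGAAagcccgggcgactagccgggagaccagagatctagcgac
PSMG4, chr6:3258887-3258966, plus strand: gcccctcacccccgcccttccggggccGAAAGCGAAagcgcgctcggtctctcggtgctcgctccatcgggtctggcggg
PSMB9, chr6:32854132-32854211, plus strand: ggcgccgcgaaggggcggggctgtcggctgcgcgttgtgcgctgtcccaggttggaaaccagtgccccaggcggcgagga
In *PSMB10*, *PSME2* and *PSMG4* the match lies on the strand of the gene, 21, 28 and 33 bases before the start. In *PSMB8* it runs on the other strand across the start, and in *PSME1* it begins 6 bases into the transcript, also on the other strand. No match was found in the printed stretch of *PSMB9*, nor in the rest of its promoter.

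After *miR-486-5p* the proteasome genes stayed close to mock. Their median difference was 0.02, beside 0.03 over all 16024 genes measured, and with median scaling −0.06 beside −0.05. Of the 49 members, 2 lay below −0.5 (*PSMC3IP* and *PSMG1*; 15.9% of all genes did) and 1 above 0.5 (*PSMC4*; 13.8% of all genes did). By limma with Benjamini-Hochberg adjustment, 1 member was lower, *PSMC3IP*, beside 6.66% of all 16662 genes tested, and 0 were higher, beside 3.58%. Without *PSMC3IP* and *PSME3IP1*, the median of the remaining 47 members was 0.03, and 0 were called in either direction. At an unadjusted p under 0.05, limma gave 8 lower and 11 higher members, beside 25.1% and 23.3% of all genes. With the authors' log2 values the counts were 0 lower and 0 higher, and with a trend of the spread on signal 15 lower and 15 higher, beside 25.0% and 22.2%. Each strand had 1 array, and limma's only residual degree of freedom lay between the mock arrays, which gives the transfected arrays the spread of the mock arrays by assumption.

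After *miR-486-3p* the family split. The chaperones *PSMG1*, *PSMG2* and *PSMG4*, core subunits *PSMA3*, *PSMB2* and *PSMB3*, the 19S subunits *PSMD11*, *PSMD14*, *PSMD1* and *PSMC6*, the nuclear activator *PSME3* and its partner *PSME3IP1* fell, to 33.4% of mock for *PSMG1* and 36.5% for *PSMD11*. *PSME1* and *PSMB9*, both interferon-inducible, rose to 219% and 176% of mock. Of the same interferon-inducible set, *PSMB8*, *PSME2* and *PSMB10* lay at differences of 0.10, 0.03 and −0.39 and were not called. Of the 49 members, 19 lay below −0.5 (27.2% of all genes) and 4 above 0.5, *PSME1*, *PSMB9*, *PSMD9* and *PSMC2* (30.4% of all genes). By limma, 20 members were lower, beside 31.6% of all genes, and 8 were higher, beside 31.9%. Without *PSMC3IP* and *PSME3IP1*, the median of the remaining 47 members was −0.18. Of these 47, 17 lay below −0.5 and 4 above 0.5, and limma called 18 lower and 8 higher. The SD of the members' differences was 0.63, beside 1.06 over all genes, and 0.34 beside 0.55 after *miR-486-5p*. The comparisons of the strands share the mock arrays, and their values are therefore given side by side only.

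The median member after *miR-486-3p* depended on the scaling. It was −0.32 with the 75th percentile, −0.69 with median scaling, −0.04 with quantile normalization and −0.06 with the authors' values, while the median of all genes was 0.06, −0.32, 0.03 and 0.01. The counts below −0.5 and above 0.5 were 29 and 1 with median scaling, 13 and 8 with quantile normalization, 13 and 6 with the authors' values and 10 and 4 with normexp, a model of the background. Members called lower and higher by limma numbered 32 and 4, 15 and 13, 15 and 11, and 17 and 16 in the same order. Median scaling subtracts another constant from each array, and the median of all genes moved down with that of the members. Its larger counts of lower members thus include a shift of all genes. Shares of all genes were not computed for any of the alternative scalings, nor for calls kept in every fit. The counts of members under them therefore cannot be set beside those of all genes. The members' median lay below that of all genes in each of these scalings, but close to it with quantile normalization and the authors' values. The size of a general fall thus depended on the scaling. Over the 9 ways in which limma was fitted, 12 members were called lower in every one, those named above as fallen, and 4 were called higher in every one, *PSMB9*, *PSMC2*, *PSMD9* and *PSME1*. Members not called here but called in at least 3 of the other fits after *miR-486-3p* were *PSMA1*, *PSMB10*, *PSMB11*, *PSMC1*, *PSMD6* and *PSMD8* (lower) and *PSMA7*, *PSMD12*, *PSMD13* and *PSMG3* (higher). After *miR-486-5p* they were *PSMG1*, *PSMG4* and *PSME3IP1* (lower) and *PSMA1*, *PSMC4*, *PSME1* and *PSMF1* (higher). A further 6 members called lower, *PSMA2*, *PSMA4*, *PSMB4*, *PSMB5*, *PSMB7* and *PSMC3*, lost their call with quantile normalization and with the authors' values. Over the 10 ways in which differences were computed, 25 members lay below 0 in each and 7 above 0 in each after *miR-486-3p*, while the sign of the remaining 17, *PSMA1*, *PSMA5*, *PSMA6*, *PSMA7*, *PSMB1*, *PSMB6*, *PSMB8*, *PSMB11*, *PSMC5*, *PSMD4*, *PSMD7*, *PSMD10*, *PSMD12*, *PSMD13*, *PSME2*, *PSMF1* and *PSMG3*, differed between them. After *miR-486-5p* the counts were 20, 20 and 9.

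**Figure D1:**
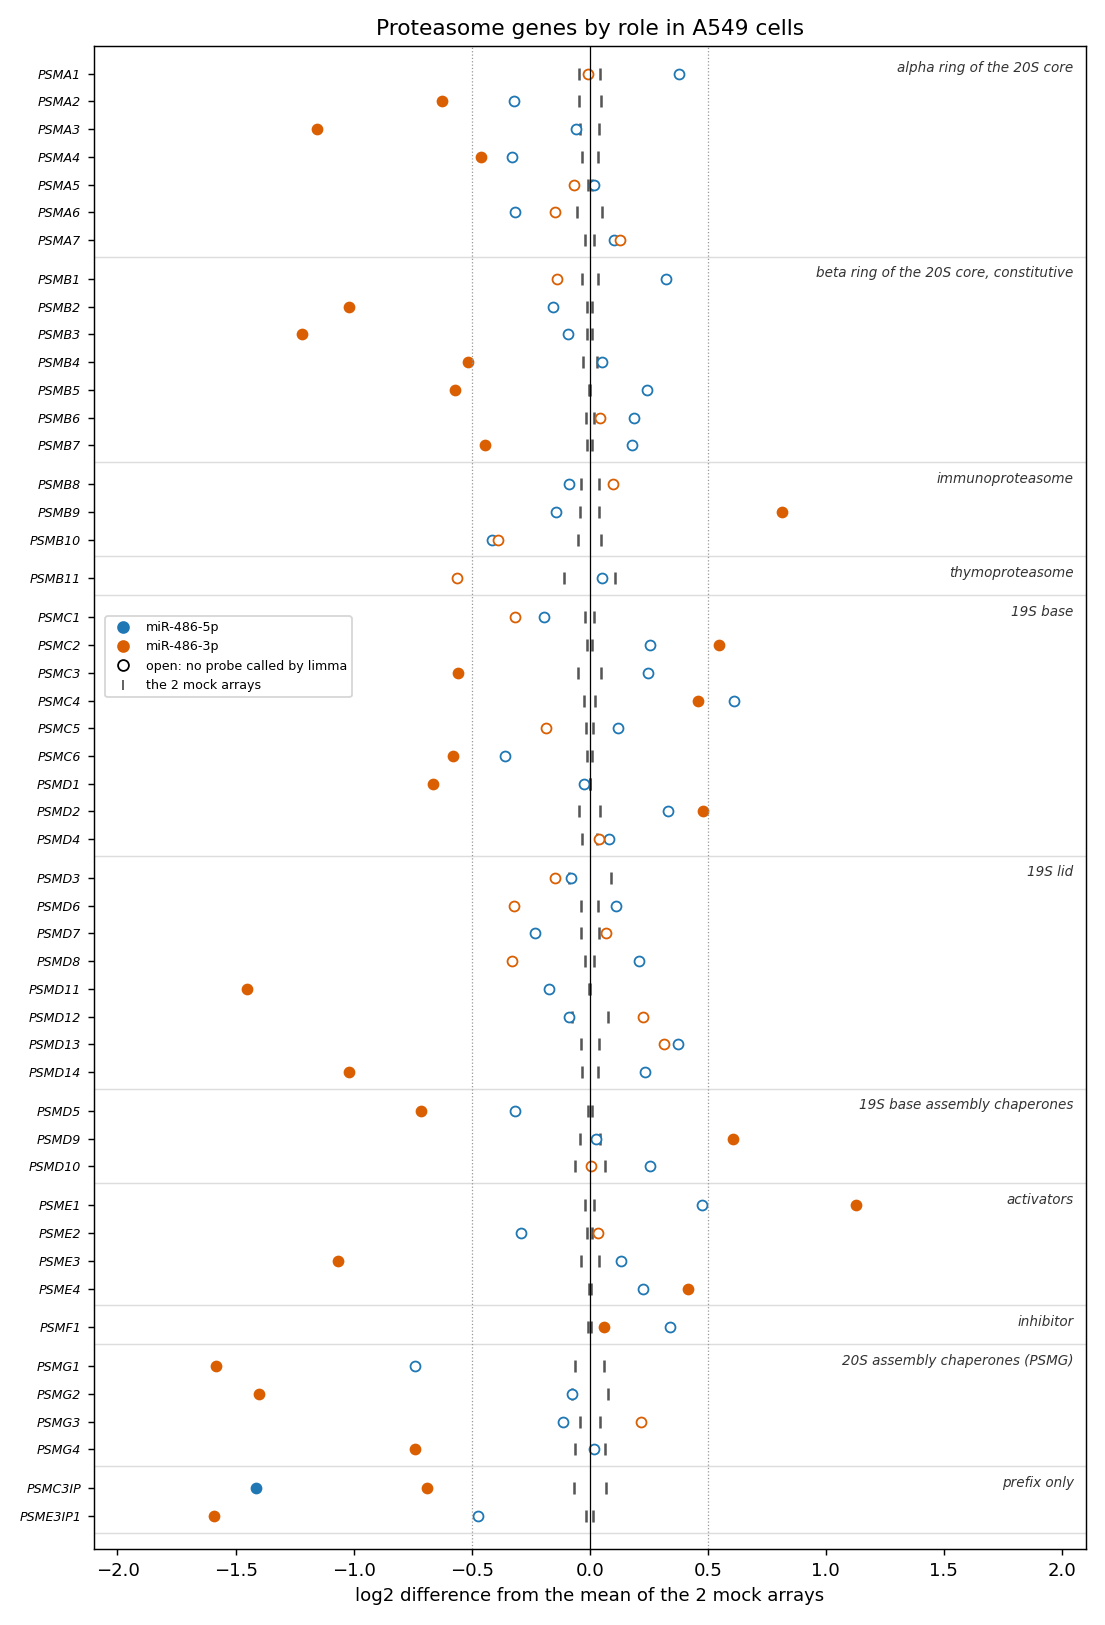
Log2 difference from mock (x axis, level minus the mock mean) for the 49 measured proteasome genes by role (y axis), blue after miR-486-5p and orange after miR-486-3p. Filled points are genes with at least 1 probe called by limma, gray ticks are the mock arrays and dotted lines mark −0.5 and 0.5. The orange points spread from −1.59 (PSME3IP1) to 1.13 (PSME1), and 1 blue point is filled (PSMC3IP).

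**Figure D2:**
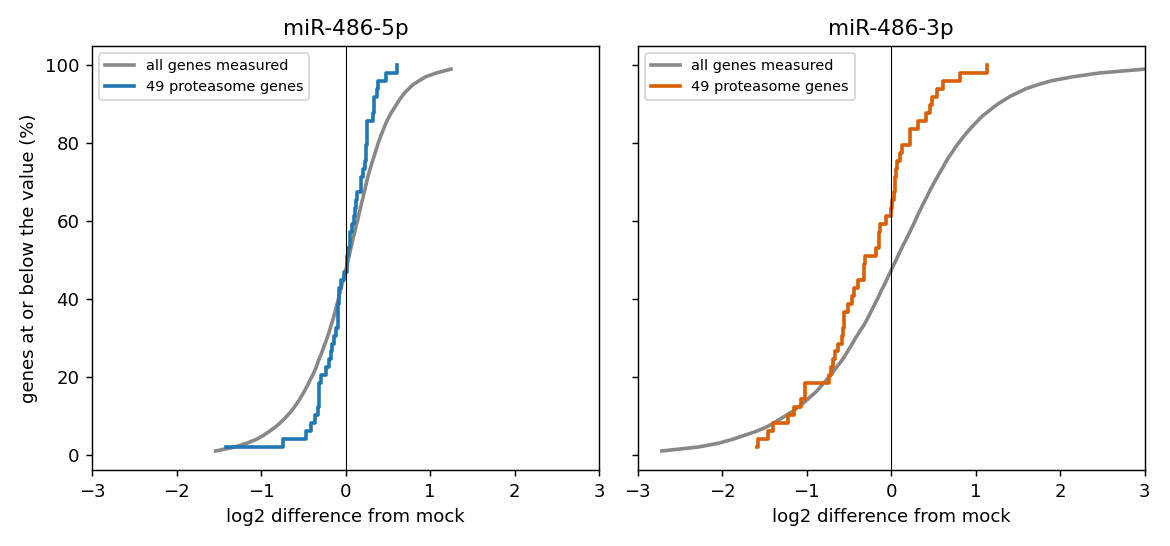
Percent of genes (y axis) at or below each log2 difference from mock (x axis) for the 49 proteasome genes and for all genes measured (1st to 99th percentile). The 49 genes include PSMC3IP and PSME3IP1. After miR-486-5p both curves cross 0 near their middle, with medians of 0.02 and 0.03. After miR-486-3p the members' curve lies to the left of all genes over most of its range, with a median of −0.32 against 0.06 at the 75th percentile scaling.

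**Figure D3:**
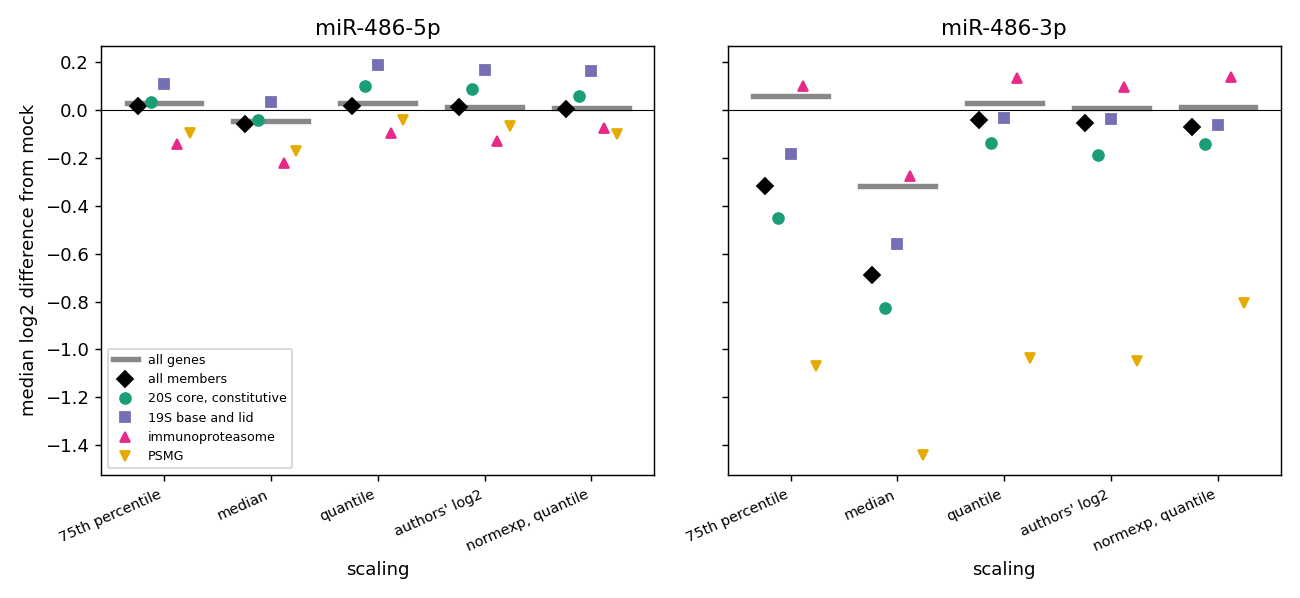
Median log2 difference from mock (y axis) of all members, 4 role groups and all genes (gray bars) under 5 scalings of the arrays (x axis), for each strand. After miR-486-3p the PSMG chaperones are lowest in each scaling, from −1.44 to −0.80, whereas the median of all members moves between −0.69 and −0.04.

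The alpha ring held 7 measured genes. After *miR-486-3p* its median difference was −0.15, and 3 of 7 were called lower and 0 higher (0 at an unadjusted p as well). The shares of all genes were 31.6% and 31.9%. The median was 0.06 with the authors' values and 0.05 with quantile normalization. *PSMA3* fell the most. Its level was 5.76 and 5.68 on the mock arrays, 5.66 with *miR-486-5p* and 4.57 with *miR-486-3p*. The *miR-486-3p* array was thus low and the others lay together (difference −1.15, SE 0.10, limma adjusted p = 0.0110). *PSMA2* and *PSMA4* were called lower at −0.63 and −0.46, calls that quantile normalization removed. *PSMA7* was the highest of the ring, at 5.16 and 5.12 on the mock arrays and 5.27 after *miR-486-3p*, a difference of 0.13 that limma did not call (adjusted p = 0.302), although quantile normalization, the authors' values and normexp gave a call. *PSMA5* and *PSMA6* lay at −0.07 and −0.15, not called.

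After *miR-486-5p* no alpha gene was called. *PSMA4* was the lowest, with 4.64 and 4.57 on the mock arrays and 4.28 after *miR-486-5p*, and *PSMA1* the highest, at 0.38. The value of *PSMA1* was a mean of 2 probes that disagreed. A bright probe gave −0.11 with *miR-486-5p* and −0.36 with *miR-486-3p*, whereas a dim probe for another transcript accession gave 0.87 and 0.34. None of these was called by limma.

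The constitutive beta ring stood lower than the alpha ring after *miR-486-3p*, with a median of −0.52. Of its 7 genes, 5 were called lower and 0 higher (0 higher at an unadjusted p), beside 31.6% and 31.9% of all genes. Its median after *miR-486-5p* was 0.18, with 0 called in either direction (0 lower and 1 higher at an unadjusted p). The beta median after *miR-486-3p* was below 0 in each scaling (−0.89 to −0.17). The difference between the rings was not tested. *PSMB3*, a beta subunit without an active site, had levels of 5.12 and 5.14 on the mock arrays, 5.04 with *miR-486-5p* and 3.91 with *miR-486-3p*. It fell to 43.0% of mock after the latter (difference −1.22, SE 0.09, limma adjusted p = 0.00939). *PSMB2*, its neighbor in the ring, fell on both of its probes. The first read 3.97 on each mock array, 3.87 with *miR-486-5p* and 2.92 with *miR-486-3p*, and the differences of the probes were −1.05 and −0.99 (limma adjusted p = 0.0109 and 0.0117).

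*PSMB1* was the highest beta gene after *miR-486-5p*, at 0.32, with probes at 0.36 and 0.29. After *miR-486-3p* the same probes lay at −0.17 and −0.11. Neither was called against mock, although one was lower after *miR-486-3p* than after *miR-486-5p* (−0.53, limma adjusted p = 0.0432), a call lost with quantile normalization, with the authors' values and without a filter on dim probes. *PSMB4* was called lower after *miR-486-3p* at −0.52, a call that quantile normalization removed.

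Among the active-site subunits and their interferon-inducible counterparts, *PSMB9* was the one called higher after *miR-486-3p*, *PSMB5* and *PSMB7* were called lower, and *PSMB10* and *PSMB7* lay at similar differences. Differences within a pair were not tested. *PSMB9*, which takes the place of *PSMB6*, read 2.68 and 2.76 on the mock arrays, 2.58 with *miR-486-5p* and 3.54 with *miR-486-3p*. The *miR-486-3p* array alone was high (difference 0.81, SE 0.10, limma adjusted p = 0.0170, and below 0.05 in every scaling), and *PSMB9* was also higher there than after *miR-486-5p* (0.96, limma adjusted p = 0.0207). *PSMB6* read 6.43 and 6.46 on the mock arrays, 6.63 with *miR-486-5p* and 6.49 with *miR-486-3p*, not called against mock. Its *miR-486-3p* level exceeded both mock levels by little.

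*PSMB8*, which takes the place of *PSMB5*, read 0.25 and 0.17 on the mock arrays, 0.12 with *miR-486-5p* and 0.31 with *miR-486-3p*. The 4 arrays lay close together and neither strand was called (adjusted p = 0.552 and 0.435 by limma). *PSMB5*, with the chymotrypsin-like site, read 5.64 on each mock array, 5.88 with *miR-486-5p* and 5.07 with *miR-486-3p*. The strands lay on opposite sides of mock, and *PSMB5* was called lower after *miR-486-3p* at 75th percentile scaling (−0.57, limma adjusted p = 0.0250), but not with the authors' values, at −0.26.

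*PSMB10*, which takes the place of *PSMB7*, read 4.81 and 4.72 on the mock arrays, 4.35 with *miR-486-5p* and 4.38 with *miR-486-3p*. Both transfected arrays were below both mock arrays (differences −0.41 and −0.39), without a call (limma adjusted p = 0.0999 and 0.0640), although 4 of the 9 fits called *PSMB10* lower after *miR-486-3p*. *PSMB7*, with the trypsin-like site, read 7.19 and 7.18 on the mock arrays, 7.36 with *miR-486-5p* and 6.74 with *miR-486-3p*. It was called lower after *miR-486-3p* (−0.44, limma adjusted p = 0.0392), a call that quantile normalization, the authors' values and normexp removed. Of the immunoproteasome genes, 1 of 3 was thus called after *miR-486-3p*, higher (31.9% of all genes were), while 1 was lower at an unadjusted p, and 0 of 3 after *miR-486-5p* (1 lower and 0 higher at an unadjusted p in limma).

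*PSMB11*, a subunit known from the thymus, was near the background. Its brighter probe read −3.24 and −3.02 on the mock arrays, −3.08 with *miR-486-5p* and −3.70 with *miR-486-3p*. The difference of −0.56 after *miR-486-3p* was not called (limma adjusted p = 0.0600).

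**Figure D4:**
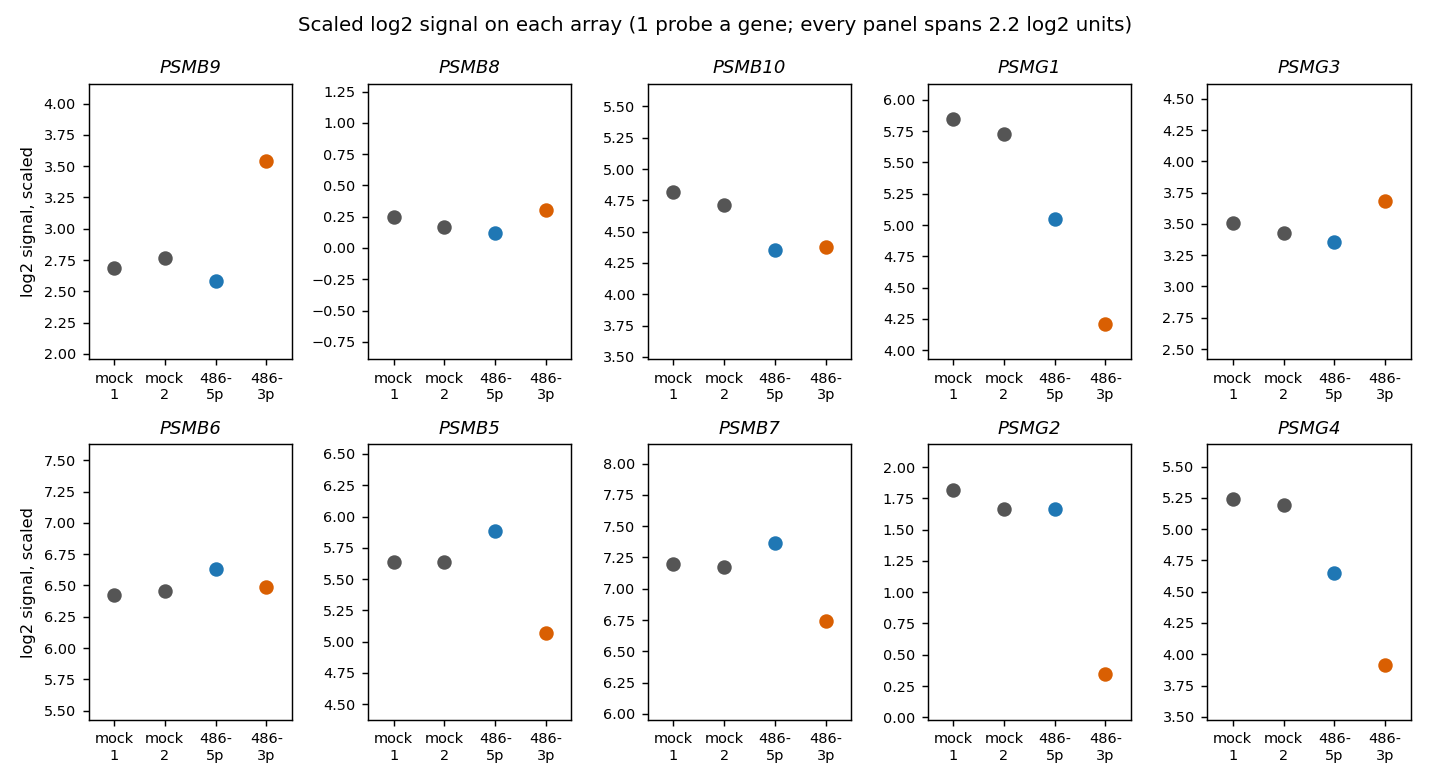
Scaled log2 signal (y axis, each panel spanning 2.2 units) on the mock arrays and after each strand (x axis) for the immunoproteasome genes above their constitutive counterparts, and for the PSMG chaperones, with the brightest probe of each gene. PSMB9 is high after miR-486-3p while PSMB5 and PSMB7 are low, and PSMG1, PSMG2 and PSMG4 are lowest after miR-486-3p while PSMG3 is not. Levels of different panels are levels of different probes and were not compared.

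The chaperones of the alpha ring gave the lowest median of the role groups of subunits and cofactors after *miR-486-3p*, at −1.07. Of the 4 genes, 3 were called lower, beside 31.6% of all genes. The direction of this median was the same in every scaling. PSMG proteins work in pairs, *PSMG1* with *PSMG2* and *PSMG3* with *PSMG4*. *PSMG1* read 5.85 and 5.73 on the mock arrays, 5.05 with *miR-486-5p* and 4.21 with *miR-486-3p*. Both transfected arrays were below both mock arrays, and the fall after *miR-486-3p* was called (−1.58, SE 0.11, limma adjusted p = 0.00902). The value after *miR-486-5p*, −0.74 or 59.9% of mock, missed the threshold (limma adjusted p = 0.0575), which 4 other ways of fitting passed. The *miR-486-3p* array was also lower than the *miR-486-5p* array (−0.84, limma adjusted p = 0.0284), which was lost with the authors' values, with normexp and without a filter on dim probes.

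*PSMG2* read 1.82 and 1.67 on the mock arrays, 1.67 with *miR-486-5p* and 0.34 with *miR-486-3p*. Here the *miR-486-5p* array lay with mock, and only the *miR-486-3p* array was low (−1.40, SE 0.12, limma adjusted p = 0.0109). *PSMG3* read 3.51 and 3.43 on the mock arrays, 3.36 with *miR-486-5p* and 3.69 with *miR-486-3p*. It was the PSMG gene without a fall, at 0.22 after *miR-486-3p* (limma adjusted p = 0.165), and it was called higher with quantile normalization. *PSMG4* had 2 probes, for different transcript accessions. The bright one read 5.24 and 5.19 on the mock arrays, 4.65 with *miR-486-5p* and 3.91 with *miR-486-3p*, and fell after the latter (difference −1.30, limma adjusted p = 0.00913), while the dim one, at −2.91 and −2.61 on the mock arrays, differed by −0.17 and was not called. The mean of both probes gave the gene a difference of −0.74.

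*POMP*, the chaperone that works on the beta ring and lies outside the name rule, read 1.18 and 1.03 on the mock arrays, 0.84 with *miR-486-5p* and 1.03 with *miR-486-3p*. Its differences of −0.26 and −0.07 were not called.

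The base of the 19S particle held genes in both directions. After *miR-486-3p* its median was −0.18, which turned positive with the authors' values, quantile normalization and normexp (0.04, 0.09 and 0.10). Of the 9 genes, 3 were called lower (*PSMC3*, *PSMC6* and *PSMD1*) and 3 higher (*PSMC2*, *PSMC4* and *PSMD2*). These counts are near the shares of all genes, 31.6% lower and 31.9% higher. *PSMD1* and *PSMD2* are the largest scaffold subunits of the base, and they lay on opposite sides of mock. *PSMD1* read 6.16 and 6.18 on the mock arrays, 6.05 with *miR-486-5p* and 5.47 with *miR-486-3p* on its brighter probe. Both probes fell after *miR-486-3p* (differences −0.70 and −0.62, limma adjusted p = 0.0184 and 0.0222). *PSMD2* was above mock on both probes, at 0.53 and 0.43, of which the first was called (limma adjusted p = 0.0353) and the second was not (0.0501). The call was lost with median scaling and without a filter on dim probes.

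Among the ATPases, *PSMC6* read 3.43 and 3.45 on the mock arrays, 3.08 with *miR-486-5p* and 2.86 with *miR-486-3p*. It was the lowest base gene after *miR-486-5p* (−0.36, not called) and fell after *miR-486-3p* (−0.58, limma adjusted p = 0.0246). *PSMC4* read 5.04 and 5.08 on the mock arrays, 5.67 with *miR-486-5p* and 5.52 with *miR-486-3p*. It was high on both transfected arrays, with the highest member difference after *miR-486-5p* (0.61, 153% of mock, limma adjusted p = 0.0582). After *miR-486-3p* it was called higher (0.46, limma adjusted p = 0.0383), with the exception of median scaling and of the fit without a filter on dim probes. *PSMC2* was called through a dim probe, at −1.39 and −1.30 on the mock arrays, −1.06 with *miR-486-5p* and −0.50 with *miR-486-3p* (0.84, limma adjusted p = 0.0170). Its bright probe gave 0.25 and was not called, although 4 of the 8 fits made per probe called it higher. *PSMC1*, *PSMC5* and the ubiquitin receptor *PSMD4* were not called after either strand.

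In the lid, 2 of 8 genes were called lower after *miR-486-3p* and 0 higher (0 at an unadjusted p in limma). Of all genes, 31.6% were called lower and 31.9% higher. The median of the lid was −0.23, and it stayed below 0 in each scaling (−0.61 to −0.05). *PSMD11* read 3.22 on each mock array, 3.05 with *miR-486-5p* and 1.77 with *miR-486-3p*. The *miR-486-3p* array stood far below the others (−1.45, SE 0.09, limma adjusted p = 0.00839). *PSMD14*, the deubiquitinase of the lid, fell on both probes (each −1.02), and the brighter read 6.32 and 6.22 on the mock arrays, 6.37 with *miR-486-5p* and 5.24 with *miR-486-3p* (limma adjusted p = 0.0132). The strands differed by −1.28 for *PSMD11* and by −1.39 and −1.12 for the probes of *PSMD14* (limma adjusted p = 0.0138, 0.0132 and 0.0181).

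*PSMD13* was the highest lid gene after both strands, with 3.06 and 3.13 on the mock arrays, 3.47 with *miR-486-5p* and 3.41 with *miR-486-3p*. Both transfected arrays were above both mock arrays, by 0.37 and 0.31, without a call. *PSMD7* was the lowest lid gene after *miR-486-5p*, at −0.23, not called. *PSMD6* and *PSMD7* were each spotted 10 times per array, and the SD of their repeated spots within an array was 0.02 to 0.05. The mock arrays differed by 0.07 and 0.08 in the mean of these spots. These spots repeat a probe and not a sample. After *miR-486-3p* *PSMD6* lay at −0.32 and *PSMD7* at 0.07, and neither was called.

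*SEM1*, the smallest lid subunit, and *ADRM1*, a ubiquitin receptor, lie outside the name rule. *ADRM1* read 2.68 and 2.78 on the mock arrays, 3.33 with *miR-486-5p* and 2.62 with *miR-486-3p*. It was high after *miR-486-5p* (0.60, limma adjusted p = 0.0665) and at −0.11 after *miR-486-3p*, and the strands differed by −0.71 (limma adjusted p = 0.0340), a call lost with the authors' values and without a filter on dim probes. The 4 probes of *SEM1* ranged from −0.55 to 1.22 after *miR-486-5p* and from −0.00 to 1.25 after *miR-486-3p*, and 2 of them were well above background on all 4 arrays. After *miR-486-3p* 3 of these probes were called higher. *SEM1* was called higher there in 7 of the 9 fits, all but those with the authors' values and without a filter on dim probes.

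The chaperones of the base differed from each other. *PSMD5* fell after *miR-486-3p* on both probes (−0.77 and −0.66, limma adjusted p = 0.0204 and 0.0307), and its brighter probe read 1.99 and 2.09 on the mock arrays, 1.58 with *miR-486-5p* and 1.27 with *miR-486-3p*. This call was lost without a filter on dim probes. *PSMD9* was called higher through a dim probe, at −2.19 and −2.29 on the mock arrays, −1.94 with *miR-486-5p* and −1.29 with *miR-486-3p* (0.95, limma adjusted p = 0.0147), while its bright probe gave 0.26, not called. *PSMD10*, also known as gankyrin, was the highest of the 3 after *miR-486-5p*, at 0.26, and lay at 0.00 after *miR-486-3p*, not called. With normexp, *PSMD9* and *PSMC2* no longer exceeded 0.5 in the mean of their probes. Their dim probes then lay at 0.27 and 0.36, and their bright probes at 0.55 and 0.51. With the authors' values the bright probes lay at 0.565 and 0.545. Each bright probe was called higher in 4 of the 8 fits made per probe.

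**Figure D5:**
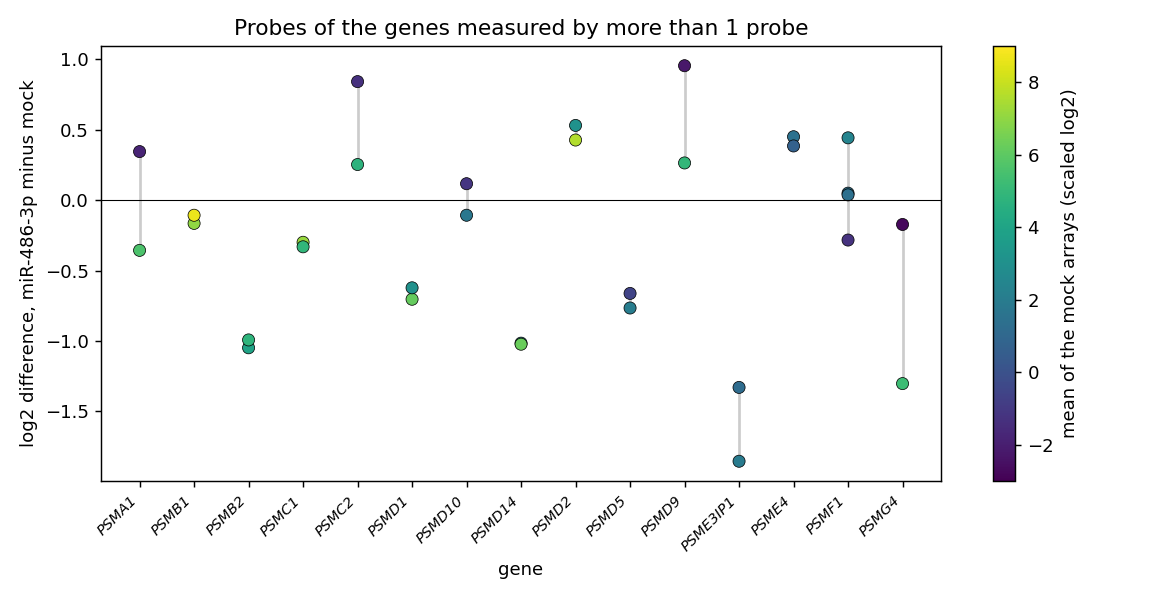
Log2 difference after miR-486-3p (y axis) of every probe of the 15 genes with at least 2 probes in use (x axis), colored by the mean scaled log2 signal on the mock arrays. The probes of PSMB2, PSMD1, PSMD5 and PSMD14 lie together below 0, whereas the dim probes of PSMA1, PSMC2, PSMD9 and PSMG4 lie above the bright ones.

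The activators also split. *PSME1* read 0.52 and 0.48 on the mock arrays, 0.97 with *miR-486-5p* and 1.63 with *miR-486-3p*. Both transfected arrays were above both mock arrays, and *PSME1* rose after *miR-486-3p* (1.13, SE 0.09, limma adjusted p = 0.0103), the one member above 0.5 under each of the 10 ways in which differences were computed. After *miR-486-5p* it lay at 0.48 (limma adjusted p = 0.0732). *PSME2*, with which *PSME1* forms one ring, read 7.04 and 7.06 on the mock arrays, 6.76 with *miR-486-5p* and 7.08 with *miR-486-3p*. It was not called after either strand (−0.29 and 0.03), although it was called higher after *miR-486-3p* with quantile normalization and with normexp. *PSME3*, the activator of the nucleus, read 2.83 and 2.91 on the mock arrays, 3.00 with *miR-486-5p* and 1.80 with *miR-486-3p*, and fell to 47.8% of mock after the latter (−1.07, SE 0.10, limma adjusted p = 0.0118).

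*PSME3IP1*, which binds *PSME3*, had the lowest difference of all members after *miR-486-3p*. Its probes read 1.98 and 1.90, and 1.20 and 1.22, on the mock arrays, 1.35 and 0.85 with *miR-486-5p*, and 0.09 and −0.12 with *miR-486-3p*. Both probes fell after *miR-486-3p*, with differences of −1.85 and −1.33 (limma adjusted p = 0.00774 and 0.00883), to 33.2% of mock in their mean. After *miR-486-5p* they lay at −0.59 and −0.36, not called. *PSME4*, the activator of the testis and of DNA repair, lay at 0.45 and 0.38 after *miR-486-3p*, and 1 of its 2 probes was called higher (limma adjusted p = 0.0378), except with median scaling. *PSMF1*, an inhibitor of the core in vitro, had 4 probes from −0.28 to 0.44 after *miR-486-3p*, of which 1 was called higher, and from −0.03 to 0.57 after *miR-486-5p*, of which none was called. The former call was lost with median scaling, without a filter on dim probes and with probes averaged before the fit.

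*PSMC3IP* was the member called after *miR-486-5p*. It read 1.17 and 1.04 on the mock arrays, −0.31 with *miR-486-5p* and 0.41 with *miR-486-3p*. Both transfected arrays were below both mock arrays, at 37.6% and 62.0% of mock (−1.41 and −0.69, limma adjusted p = 0.0475 and 0.0278). The call after *miR-486-5p* lay just under the threshold, and was lost with the authors' values, with normexp and without a filter on dim probes. The call after *miR-486-3p* was lost with the latter pair of settings.

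Between the strands, 17 members were called lower after *miR-486-3p* than after *miR-486-5p* (27.3% of all genes) and 5 higher (26.7%), *PSMB9*, *PSME1*, *PSMD9*, *PSMC2* and *PSMC3IP*. In the constitutive beta ring 6 of 7 genes were called lower, at a median of −0.62, of which *PSMB1*, *PSMB4* and *PSMB7* lost the call with quantile normalization and with the authors' values. In the alpha ring it was 1 of 7, *PSMA3*. In each of the 9 fits, 10 members were lower between the strands and 1 higher, *PSMB9*. The lowest of the members was *PSMG2*, at −1.32, and the highest *PSMB9*, at 0.96. *PSMC3* read 3.53 and 3.63 on the mock arrays, 3.83 with *miR-486-5p* and 3.03 with *miR-486-3p*. The strands lay on opposite sides of mock and differed by −0.80 (limma adjusted p = 0.0275), a call lost without a filter on dim probes. The strand calls of *PSME1* and *PSMD9* were lost without that filter and with median scaling.

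The pathway that induces proteasome genes was also on the arrays. *NFE2L1*, the transcription factor, read 4.32 and 4.24 on the mock arrays, 4.16 with *miR-486-5p* and 3.24 with *miR-486-3p*, and fell after the latter (−1.04, limma adjusted p = 0.0125). *DDI2*, the protease that activates it, was dim and had the highest difference of its list, at 1.81 (limma adjusted p = 0.0112). Of the 8 genes of the list, 2 were called lower after *miR-486-3p*, *NFE2L1* and *VCP*, and 4 higher, *DDI2* and the small MAF proteins with which NFE2L1 binds DNA, *MAFF*, *MAFG* and *MAFK*. After *miR-486-5p* 0 were lower (also at an unadjusted p) and 3 higher, led by *MAFF* at 1.57, and these calls were lost with the authors' values and without a filter on dim probes. These counts stand beside the 31.6% and 31.9% of all genes given above for *miR-486-3p*, and the 6.66% and 3.58% for *miR-486-5p*. The list had medians of 0.53 (3p) and 0.43 (5p), of which the first was 0.16 with median scaling and the second 0.22 with normexp. The letters TGACNNNGC, the core of the antioxidant response element to which such factors bind, were found on either strand in 15 of the 55 member promoters, beside 13.8% of all promoters. Of their genes, *PSMA4*, *PSMB3*, *PSMD1*, *PSMD5*, *PSMG1* and *PSMG2* were called lower after *miR-486-3p*. Called higher were *PSMB9*, *PSMC4*, *PSMD9*, *PSME1* and *PSME4*, while *PSMC5*, *PSMD3*, *PSMD12* and *PSME2* were not called. The matches overlapped no match of the other motifs searched, 0 in all.

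Of the 6 interferon and antigen processing genes listed beside the immunoproteasome, 5 were called higher after *miR-486-3p* (31.9% of all genes were). The list's median was 0.92, which was 0.50 with normexp, 0.55 with median scaling and 0.66 with the brightest probe. *TAPBP* was not called higher, and 1 of its 3 probes was called lower. *TAP1*, the peptide transporter gene next to *PSMB9*, read 3.97 on each mock array, 3.45 with *miR-486-5p* and 4.62 with *miR-486-3p*. Like *PSMB9* it was high after *miR-486-3p* (0.65, limma adjusted p = 0.0202, not called with median scaling), and it lay below mock after *miR-486-5p* (−0.52, not called). *IRF1*, which binds the interferon-stimulated element, rose by 1.44 after *miR-486-3p* (limma adjusted p = 0.0121). After *miR-486-5p* it lay at 0.24, not called, and the list had 1 gene lower, *TAP2*, and 1 higher, *NLRC5*, calls lost with the authors' values and without a filter on dim probes.

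Beside these rises, the genes that share the letters printed above lay in both directions after *miR-486-3p*: *PSME1* at 1.13, *PSMB8* at 0.10, *PSME2* at 0.03, *PSMB10* at −0.39 and *PSMG4* at −0.74, and *PSMB9*, without the letters, at 0.81.

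Of the 16 associated factors listed outside the name rule, 14 had a matched probe, of which limma called 4 lower and 5 higher when *miR-486-3p* was given, near the shares of all genes (31.6% and 31.9%). Their median was 0.15, which turned to −0.23 with median scaling and to −0.04 with the brightest probe of each gene. *UBQLN1*, a shuttle that brings ubiquitinated proteins to the proteasome, was the lowest, with 2.46 and 2.63 on the mock arrays and 1.54 with *miR-486-3p* in the mean of its 2 probes (−1.01). Of these probes, 1 was called lower (limma adjusted p = 0.00987) and the other was not (0.0675). *PITHD1*, a proteasome-binding protein, was the highest (1.87, limma adjusted p = 0.00795). After *miR-486-5p* their differences were −0.44 and 0.15, the lowest factor was *PAAF1* at −0.54, not called, the highest was *ADRM1*, and the 1 gene called was *SEM1*, through probes in both directions, in 4 (lower) and 5 (higher) of the 9 fits. *UBB*, which encodes ubiquitin, fell by 0.61 after *miR-486-3p* and was not called after *miR-486-5p* (−0.16).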

How the data were processed

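RNA of A549 cells was measured on 4 one-color Agilent arrays (1 *miR-486-5p*, 1 *miR-486-3p*, 2 mock), and each sample was grouped by its title. Per the file headers, the authors produced the deposited spot intensity with Agilent Feature Extraction 12.1.1.1, which had subtracted the background. A second table deposited by the authors holds log2 values, whose quartiles are identical on all arrays and whose normalization is not stated. These values were used as an alternative, matched by probe.

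The log2 processed signal minus the 75th percentile of each array was averaged over the spots of a probe. Outlier spots (50 to 72 an array) were left out, and no spot was saturated. All arrays lay on 1 slide and in 1 scan. Between 30690 and 31516 of 58201 probes were well above background, and the number of arrays limits the precision. A probe entered a comparison if the software called it well above background on the transfected array or else on each mock array. A group not well above background was raised to the lowest signal above it, which gives a bound. Probes were named by RefSeq accession through a GRCh38.p14 table, used for names and promoters only, since the arrays were annotated on another build. Of 33080 probes with such an accession, 31104 matched.

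Differences past 0.5 were counted without a test. limma 3.58.1 (R 4.3.3; lmFit, eBayes) was fitted to 33498 probes and 3 groups, with 1 residual degree of freedom, a prior of 1.75 degrees of freedom with an SD of 0.0893, and Benjamini-Hochberg adjustment over all probes at 0.05, and was tested on simulated data. The simulated arrays were all given the same spread, so that this could not check whether a transfected array varies as the mock arrays do. One called probe sufficed to call a gene. Alternatives were median scaling, quantile normalization, the authors' values, normexp on the median signal (offset 50) with quantile normalization, no filter on dim probes, only probes well above background in all 4 samples, the brightest probe, a limit of 1, each mock array left out, an intensity trend, probes averaged before the fit, and the methods' t-test. Every member may be named. Values on each array are given for the immunoproteasome genes and their counterparts, for PSMG genes, and for the lowest and highest member of each role group, and other genes are named as the extremes of their lists or as fixed members of these lists. The members and lists were chosen with earlier results of these data known. Some genes of the gene and marker lists are not reported here, and the counts, medians and sums of these lists leave them out.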

Additional observations from a re-analysis of the deposited data

How the results depend on the processing

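The falls of *PSMA3*, *PSMB2*, *PSMB3*, *PSMD11*, *PSMD14*, *PSME3*, *PSME3IP1*, *PSMG1*, *PSMG2* and *PSMG4* and the rise of *PSME1* after *miR-486-3p* passed 0.5 in each of the 10 ways of computing a difference. Of the 196 recomputed counts and medians, 121 moved little. Shares of all genes were not computed for the counts below, except for the intensity trend after *miR-486-5p*. With median scaling, 29 members lay below −0.5 and 1 above 0.5 after *miR-486-3p*, limma called 32 lower and 4 higher, 1 was higher against *miR-486-5p*, and 2 were lower and 1 higher after *miR-486-5p*. Medians after *miR-486-3p* were then −0.69 (members), −0.83 (constitutive core), −0.56 (19S base and lid), −0.27 (immunoproteasome) and −1.44 (PSMG), and after *miR-486-5p* −0.058, −0.042, 0.034 and −0.22 for the first 4. With quantile normalization, 8 members lay above 0.5 after *miR-486-3p*, limma called 13 higher, and 8 against *miR-486-5p*. The medians of members, core and 19S were −0.041, −0.14 and −0.032 after *miR-486-3p*, and those of core and 19S 0.10 and 0.19 after *miR-486-5p*. With the authors' values, limma called 0 lower after *miR-486-5p*. The same medians were −0.055, −0.19 and −0.038, and 0.088 and 0.17. With normexp, 10 members lay below −0.5 after *miR-486-3p*, limma called 16 higher, 9 higher against *miR-486-5p* and 6 higher after *miR-486-5p*. Its medians were −0.069 (members), −0.14 (core), −0.060 (19S) and −0.80 (PSMG) after *miR-486-3p*, and 0.16 (19S) and −0.076 (immunoproteasome) after *miR-486-5p*. Median scaling subtracts another constant from each array, so that bright and dim probes shift alike. The other scalings differ in how they treat bright and dim probes, and the cause of their shifts was not tested.

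Without a filter on dim probes, limma called 5 members higher after *miR-486-3p*, 11 lower and 1 higher against *miR-486-5p* and 0 lower after *miR-486-5p*. The median of members after *miR-486-3p* was −0.17, and *PSMB11*, dim throughout, turned to 0.058. With probes well above background on every array, 5 were lower and 5 higher after *miR-486-5p*. With the brightest probe, 2 members lay above 0.5 after *miR-486-3p*, and 4 below −0.5 and 2 above 0.5 after *miR-486-5p*. limma then called 5 higher after *miR-486-3p* and 3 higher against *miR-486-5p*, the PSMG medians were −1.35 and −0.34, and those of members and core after *miR-486-5p* −0.076 and −0.019. At a limit of 1, the counts were 9 and 1 after *miR-486-3p* and 1 and 0 after *miR-486-5p*. An intensity trend in limma gave 15 lower and 15 higher after *miR-486-5p* and 11 higher between the strands. Probes averaged before the fit gave, after *miR-486-5p*, 3 lower and 2 higher. The methods' t-test, after Benjamini-Hochberg adjustment, called 0 members in any comparison. Unadjusted, it called 2 higher and 14 lower after *miR-486-3p*, 3 higher between the strands, and 7 lower and 4 higher after *miR-486-5p*. For these too, the cause was not tested.

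With either mock array left out, the median of the 19S base and lid after *miR-486-3p* was −0.24 to −0.17, and the other medians and counts past 0.5 moved by less than the gap between the mock arrays or by less than 1.5 times. limma has no residual degree of freedom then and was not run. No paired analysis was possible because a strand with 1 array shares at most 1 replicate number with mock. Naming by the array's own gene names and a slide block were not run, since the files hold no such column and 1 slide. Mean signals are not in the files, and normexp used the median. Dim probes, such as those that give *PSMC2* and *PSMD9* their calls, are the least certain.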
